A study of Mus musculus with 5 samples.

Results

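The Zfp genes are the mouse genes named zinc finger protein with a number, and 333 of the 21278 autosomal protein-coding genes of the mm9 genome (GENCODE annotation) carried a symbol of Zfp followed only by digits. They were split by position. Of the 333, 179 had another Zfp gene within 100 kb (clustered) and 154 had none (single). The rule itself used symbols and positions only. Listing was scored for each gene as at least 1 deposited 200-bp window within 1 kb of the start of any protein-coding transcript (transcription start site, TSS), and its level was the sum of the window values there, in tags per M (mega) uniquely mapped tags (RPM), at the TSS where that sum was highest.

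The windows came from chromatin immunoprecipitation and sequencing (ChIP-seq) of CD4+CD8+ double-positive (DP) thymocytes, 1 library per group. The groups were wild-type (WT) cells and Cxxc1-deficient cells, each precipitated for trimethylated lysine 4 of histone H3 (H3K4me3), and a ChIP for Cxxc1 itself. According to the study's methods, Cxxc1-deficient mice were Cxxc1 fl/fl with hCD2-Cre, in which Cre is expressed from the human CD2 promoter in early thymocytes and in other lymphocytes. The mice that the study calls WT were Cxxc1 fl/fl mice. The floxed allele was made in strain 129 embryonic stem cells and bred onto C57BL/6, and mice were 3 to 4 weeks old unless stated. The titles call the deficient samples KO while their genotype label reads Cxxc1+/-. The Cxxc1 list carries no genotype in its own label and was taken as WT from the methods. The Cxxc1 ChIP in deficient cells and the WT input were not analysed here as lists. How many animals gave each library is not given in the sources used here.

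Most Zfp proteins are DNA-binding proteins built from repeated C2H2 zinc fingers, in which 2 cysteines and 2 histidines hold a zinc ion and each finger reads a few bases. Many mouse Zfp genes arose by tandem duplication and lie in clusters of related copies. A large subgroup also carries a KRAB domain, which recruits the corepressor Trim28 and with it the H3K9 methyltransferase Setdb1, and silences retroelements and imprinted loci. H3K4me3 marks the start of active and poised genes, and Cxxc1 (CFP1) brings the Setd1 methyltransferases to unmethylated CpG-rich DNA.

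The mouse reference shows how much promoters of this family differ in CpG content. The 5 runs are the bases before the TSS used for 5 members, from mm9, written 5′ to 3′ on the strand of the gene, with each CG in capitals because CpG is the base pair step that Cxxc1 binds. They stand for the clustered member with the highest WT H3K4me3 (Zfp655, chr5:145992342-145992591, plus strand, tied with Zfp446, whose upstream bases lie in an annotated exon and are not shown), the highest single member (Zfp161, chr17:69732140-69732389, plus strand), the member with the highest H3K4me3 in Cxxc1-deficient cells among those also listed in WT (Zfp687, chr3:94819371-94819546, minus strand, tied with Zfp575 and taken for its higher WT level), the member with the highest Cxxc1 level (Zfp426, chr9:20297191-20297440, minus strand) and the unlisted member lowest in CpG of the 14-gene cluster on chromosome 7 (Zfp14, chr7:30829754-30830003, minus strand).
Zfp655: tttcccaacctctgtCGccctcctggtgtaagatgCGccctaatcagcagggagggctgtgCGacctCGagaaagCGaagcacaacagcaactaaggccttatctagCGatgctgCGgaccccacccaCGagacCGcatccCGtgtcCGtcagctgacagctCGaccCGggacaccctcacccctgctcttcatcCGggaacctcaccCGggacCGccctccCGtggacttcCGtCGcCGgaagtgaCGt
Zfp161: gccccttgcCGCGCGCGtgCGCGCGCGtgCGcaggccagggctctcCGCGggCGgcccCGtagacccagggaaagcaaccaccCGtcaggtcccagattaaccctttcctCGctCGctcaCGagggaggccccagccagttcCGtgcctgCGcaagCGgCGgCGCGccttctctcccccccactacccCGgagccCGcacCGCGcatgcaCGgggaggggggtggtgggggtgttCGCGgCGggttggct
Zfp687: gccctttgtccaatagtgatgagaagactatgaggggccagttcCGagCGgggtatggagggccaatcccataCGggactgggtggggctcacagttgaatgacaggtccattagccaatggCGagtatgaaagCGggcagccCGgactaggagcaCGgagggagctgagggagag
Zfp426: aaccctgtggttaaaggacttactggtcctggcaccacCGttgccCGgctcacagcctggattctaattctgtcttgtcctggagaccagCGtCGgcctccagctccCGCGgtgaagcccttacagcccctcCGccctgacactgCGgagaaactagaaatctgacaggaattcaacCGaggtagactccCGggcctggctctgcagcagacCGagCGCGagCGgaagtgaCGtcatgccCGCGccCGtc
Zfp14: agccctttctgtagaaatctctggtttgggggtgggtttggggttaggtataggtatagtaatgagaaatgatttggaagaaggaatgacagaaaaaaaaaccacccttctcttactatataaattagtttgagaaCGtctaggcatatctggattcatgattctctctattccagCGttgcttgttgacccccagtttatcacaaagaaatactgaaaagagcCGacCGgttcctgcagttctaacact
The run of Zfp161 held 31 CpGs in 250 bases and was 74.0% G or C, whereas that of Zfp14 held 4 CpGs in 250 bases at 40.4%. Zfp655 held 21 and Zfp426 held 18, each in 250 bases. Zfp687 held 7 in 176 bases, since 74 bases in annotated exons were left out.

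The 3 lists held 99316 windows in WT H3K4me3, 18403 in Cxxc1-deficient H3K4me3 and 20038 for Cxxc1. Windows with at most 2 missing windows between them were joined, which gave 14237, 2979 and 4352 joined peaks. The step between values placed both H3K4me3 libraries between 9.416 and 9.47 M uniquely mapped tags and the Cxxc1 library between 9.095 and 9.141 M. A place without a listed window has no recorded level: it was below the authors' peak call, and is written here as unlisted, not as 0. Of 7 matched DP thymocyte markers 5 were listed in WT (Cd8a, Cd8b1, Cd3e, Tcf7 and Bcl11b) while Cd4 and Rag1 were not, and of 8 markers of other cell types only the B cell factor Ebf1 was, at 1.7 RPM. With 1 library per group no test between genotypes was possible. Shares are given with 95% Wilson intervals and differences of shares with 95% Newcombe intervals, which treat genes as independent, cover counting error only and were not adjusted for the 34 differences computed.

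WT H3K4me3 was listed at 115 of the 333 Zfp genes, beside 32.5% of all autosomal genes. The share was 34.5% (29.6 to 39.8), and the difference from the other 20945 autosomal genes was 2.04 percentage points (-2.91 to 7.33). The 2 position classes lay on either side of that background. Of the 179 clustered genes 49 were listed, or 27.4% (21.4 to 34.3), and of the 154 single genes 66, or 42.9% (35.3 to 50.8). Clustered genes were listed less often than single ones by 15.5 percentage points (clustered minus single, -15.5, interval -25.4 to -5.22). Single genes exceeded the other autosomal genes by 10.4 percentage points (2.78 to 18.3), and the interval for clustered minus other genes included 0 (-5.13, -11.2 to 1.86). In Cxxc1-deficient cells 20 members were listed, or 6.01%, beside 6.13% of all autosomal genes. The Cxxc1 list reached 5 members, or 1.50%, beside 2.03% of all autosomal genes. In no list at all were 211 members, or 63.4%, beside 64.5% of all autosomal genes.

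**Figure D1:**
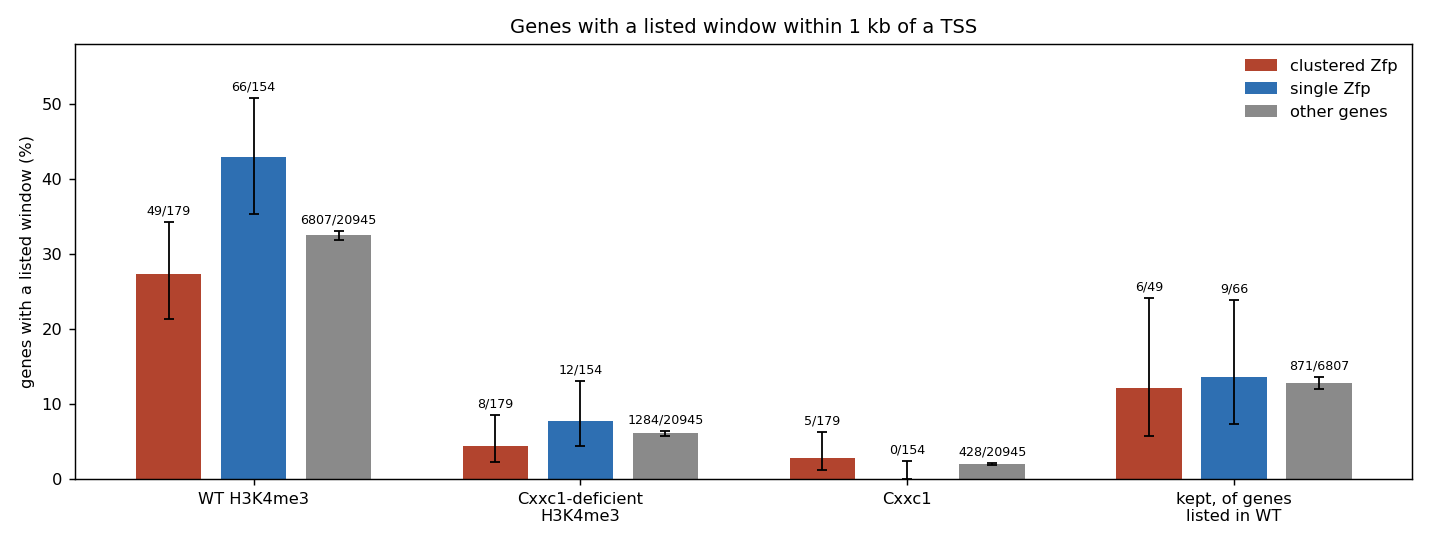
Percent of genes with a listed window within 1 kb of a TSS in each of the 3 lists, and percent of genes listed in WT H3K4me3 that were also listed in Cxxc1-deficient cells, for clustered Zfp, single Zfp and other autosomal genes. Bars are shares, error bars 95% Wilson intervals and labels counts. The WT bars are 27.4%, 42.9% and 32.5%, while the kept shares lie between 12.2% and 13.6%.

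Where a member was listed in WT, its level ranged from 0.3 to 4.8 RPM with a median of 2.30 RPM (95% interval of the median 2.10 to 2.50), the same median as the other listed autosomal genes. At this depth these levels stand for about 3, 45 and 22 tags. The median was 2.1 RPM (1.9 to 2.4) in clustered and 2.65 RPM (2.2 to 2.9) in single genes. The 8 members at or above 3.5 RPM were all single, and the highest clustered level was 3.2 RPM. Joined peaks at listed clustered genes had a median length of 1200 bp and those at single genes 1500 bp, against 1600 bp at other genes.

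The highest levels belonged to Zfp161, a BTB-domain factor that binds GC-rich DNA, at 4.8 RPM in WT, and to Zfp664 at 4.7 RPM. Zfp335, a factor needed for the maturation of naive T cells, reached 4.5 RPM in a joined peak of 5200 bp, the longest at any listed member. Zfp687, a partner of chromatin reader complexes, stood at 4.1 RPM. Zfp318, which controls IgD expression in B cells, Zfp319 and Zfp622 each stood at 3.9 RPM and Zfp408 at 3.5 RPM. Of these 8 only Zfp687 was listed in Cxxc1-deficient cells, at 2.7 RPM, and none had a Cxxc1 window near a TSS. Zfp664, Zfp319 and Zfp408 each had a TSS of another gene within 1 kb (Ccdc92, AA960436 and Arhgap1), so their windows cannot be assigned to 1 gene.

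**Figure D2:**
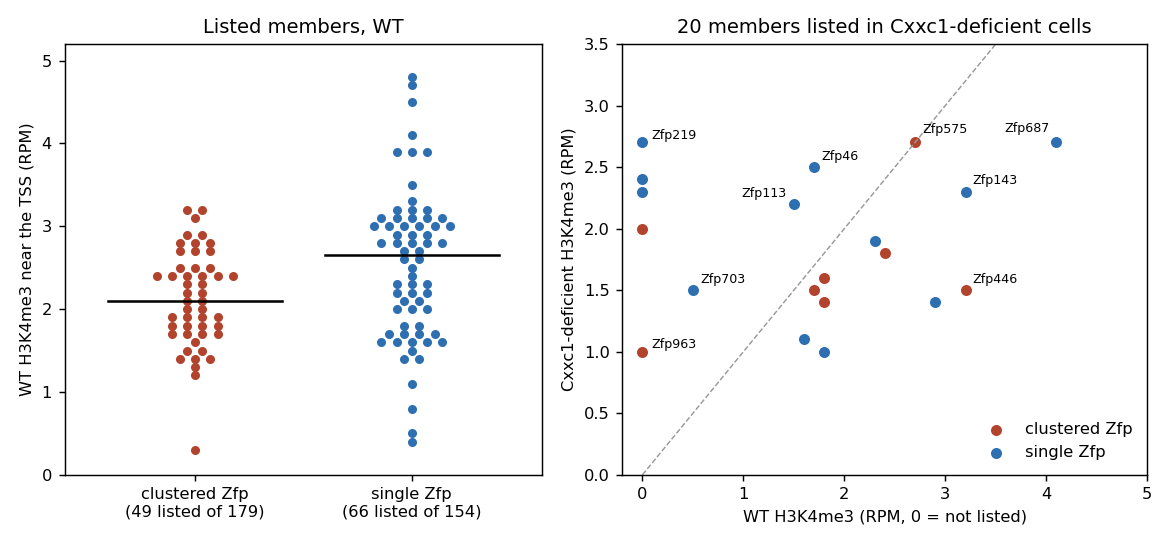
Left, WT H3K4me3 within 1 kb of a TSS in RPM for the listed clustered and single Zfp genes, 1 point per gene, with the median as a line (2.1 and 2.65 RPM). Right, Cxxc1-deficient against WT level within 1 kb of a TSS, in RPM, for the 20 members listed in Cxxc1-deficient cells. The line of equal levels is dashed and genes unlisted in WT are drawn at 0 on the horizontal axis. Zfp575 lies on the line and Zfp46, Zfp113 and Zfp703 lie above it.

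Of the 115 members listed in WT 15 were also listed in Cxxc1-deficient cells, which is called kept here, beside 12.8% of all autosomal genes listed in WT. The share was 13.0% (8.07 to 20.4) and differed from the other genes by 0.248 percentage points (-4.80 to 7.65). Clustered genes kept 6 of 49 (12.2%, 5.73 to 24.2) and single genes 9 of 66 (13.6%, 7.34 to 23.9). The difference between the classes was -1.39 percentage points (-13.6 to 12.2), so at these counts a difference in keeping was not detectable. In 14 of the 15 the joined peaks of both genotypes overlapped, beside 773 of the 871 other kept genes. The exception among the members was Zfp703, a developmental corepressor.

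Levels of the kept members, summed within 1 kb of a TSS, moved in both directions. Between WT and Cxxc1-deficient cells 11 were higher in WT, 1 was equal and 3 were higher in Cxxc1-deficient cells, while of the other kept genes 648 were higher in WT, 46 equal and 177 higher in Cxxc1-deficient cells. Zfp687 went from 4.1 RPM in WT to 2.7 RPM in the deficient library. Zfp143, an activator that binds many promoters, had 3.2 and 2.3 RPM, and shares its start with AA474408 at 377 bp. Zfp575 had 2.7 RPM in both and lies 98 bp from a TSS of Ethe1. These 3 were among the strongest deficient-cell promoters of the family. Some of the orders depend on the 1 kb limit. Over whole joined peaks Zfp575 had 5.7 RPM in WT and 3.0 RPM in deficient cells. Zfp341 (1.8 in WT and 3.4 RPM) and Zfp192 (1.7 in WT and 2.0 RPM) were then higher in deficient cells.

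Zfp446, whose protein also has a SCAN domain, had 3.2 RPM in WT against 1.5 RPM, the widest gap of the 15. Zfp46 had 1.7 RPM in WT against 2.5 RPM in the deficient library, and Zfp113, a KRAB gene, 1.5 and 2.2 RPM. The BTB-domain gene Zfp295 had 2.3 and 1.9 RPM. The clustered genes Zfp956 (2.4 and 1.8 RPM), Zfp707 (1.8 and 1.6 RPM) and Zfp192 (1.7 and 1.5 RPM) differed by 0.6 RPM or less. The remaining 5 are named only to complete the 15. Zfp516, Zfp286, Zfp608 and Zfp341 had 1.6 to 2.9 RPM in WT and 1.0 to 1.4 RPM in deficient cells. Zfp703 had 0.5 RPM in WT, part of a joined peak of 2.0 RPM, and 1.5 RPM in deficient cells. One RPM is about 9 tags here and each value comes from 1 library, so small differences cannot be told apart from counting error. A high WT level did not mark the kept members, whose WT median was 1.8 RPM (1.7 to 2.9) against 2.4 RPM (2.1 to 2.6) for the 100 lost ones. The 2 intervals overlap. Among other genes the medians were 2.5 and 2.3 RPM.

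Listed only in Cxxc1-deficient cells were 5 members, or 1.50%, beside 1.96% of all autosomal genes. They were Zfp219 at 2.7 RPM, the SUMO ligase gene Zfp451 at 2.4 RPM, Zfp236 at 2.3 RPM, the myelination factor gene Zfp191 at 2.0 RPM and Zfp963 at 1.0 RPM. Zfp191 and Zfp963 are clustered. All 5 had at least 91.6% of the sampled 50-base stretches around their TSSs found once in the genome.

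Cxxc1 windows lay near a TSS of 5 members, all of them clustered (2.79%, 1.20 to 6.37), and of 0 of the 154 single genes, where the interval reaches 2.43%. The difference, clustered minus single, was 2.79 percentage points (-0.116 to 6.37). Zfp426 had 2.3 RPM, Zfp174 had 2.2 RPM and Zfp58 had 2.0 RPM. Zfp286 had 1.3 RPM and Zfp580 had 0.5 RPM. These values cover only the windows within 1 kb of a TSS. Over whole joined Cxxc1 peaks Zfp580 had 3.5 RPM and Zfp286 had 2.7 RPM, above Zfp426 (2.3), Zfp174 (2.2) and Zfp58 (2.0 RPM). At 3 of the 5 a WT H3K4me3 window was also within 1 kb of a TSS (Zfp426 at 2.1, Zfp286 at 1.8 and Zfp580 at 2.4 RPM), but the joined Cxxc1 peak overlapped a joined WT H3K4me3 peak at 0 of the 5. Its nearest WT peak was 201 bp away at Zfp580, 401 bp at Zfp286 and 1201 bp at Zfp426, and 23801 and 438401 bp away at Zfp174 and Zfp58. The study reports that few Cxxc1 sites of DP cells coincided with H3K4me3. Overlap of joined peaks was not counted over other genes here, so no trait of this family is read from it. The centres of the Cxxc1 peaks lay downstream of the gene start. They were at 232 bp for Zfp174 and at 1564 to 2390 bp for Zfp286, Zfp580 and Zfp426. For Zfp58 the centre lay 25886 bp downstream of the gene start, and the peak covered the first protein-coding TSS. The run printed for Zfp426 thus lies within its WT H3K4me3 peak and outside its Cxxc1 peak. Of the 5 promoters only that of Zfp580 met the CpG-rich definition given further on. Only Zfp286 was in all 3 lists, with 1.4 RPM in Cxxc1-deficient H3K4me3.

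**Figure D3:**
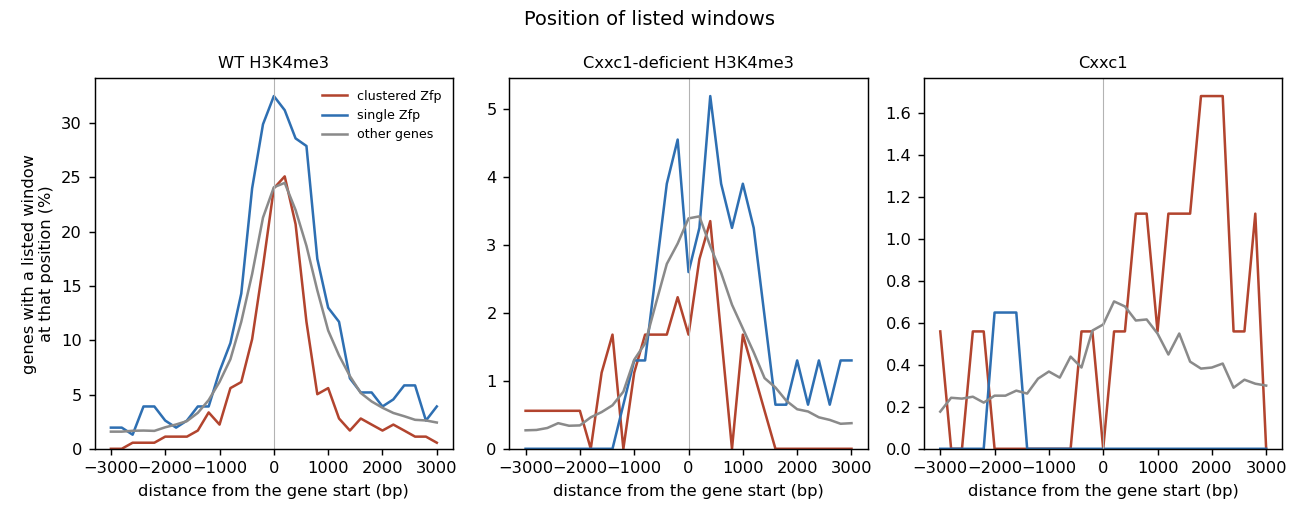
Percent of clustered Zfp, single Zfp and other autosomal genes with a listed window at each distance, in bp, from the 5′ end of the gene (negative is upstream), for the 3 lists; the vertical scales differ. In WT the share at the gene start is 24.0% in clustered, 32.5% in single and 24.1% in other genes, and the clustered curve is narrower, with 5.59% at 1000 bp downstream against 13.0% and 10.9%.

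Within 3000 bp of the gene start, WT windows were most frequent 200 bp downstream in clustered genes (25.1%). In single genes they were most frequent at the start (32.5%), and in other genes 200 bp downstream (24.5%). The strongest WT window was sought only within 1 kb of the TSS, so its closeness to the TSS was set by the search. Its centre was a median of 60 bp downstream of the TSS in clustered genes (quartiles -98 and 160 bp) and 80 bp downstream in single genes (-286 and 469 bp). In other genes it was 84 bp downstream (-212 and 400 bp). The quartiles lay closer together in clustered genes.

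Promoter CpG content was lower in clustered genes. A promoter was called CpG-rich where 500 bp on each side of any TSS held at least 55% G or C and at least 0.65 of the CpGs its C and G content would give. This applied to 47 of 179 clustered genes (26.3%, 20.4 to 33.2) and 82 of 154 single genes (53.2%, 45.4 to 61.0), a difference of -27.0 percentage points (-36.7 to -16.5), against 40.4% of other genes. Among CpG-rich members 77 of 129 were listed in WT (59.7%, 51.1 to 67.8) and among CpG-poor members 38 of 204 (18.6%, 13.9 to 24.5). In other genes these shares were 56.7% and 16.1%. Within the CpG-poor class clustered and single genes had 25 of 132 and 13 of 72 listed, a difference of 0.884 percentage points (-11.0 to 11.3). Within the CpG-rich class they had 24 of 47 and 53 of 82, a difference of -13.6 percentage points (-30.3 to 3.84). Both intervals within a CpG class included 0. What part CpG content had in the class difference was not tested.

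**Figure D4:**
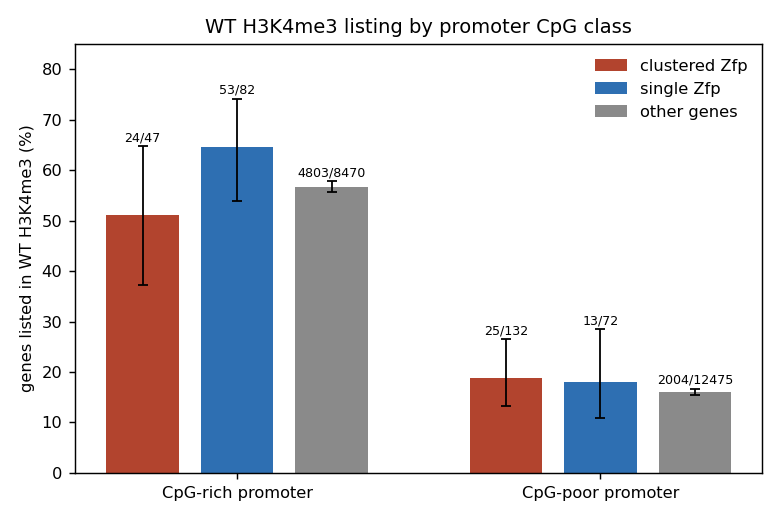
Percent of clustered Zfp, single Zfp and other autosomal genes listed in WT H3K4me3, split by promoter CpG class; bars are shares, error bars 95% Wilson intervals and labels counts. CpG-poor shares lie between 16.1% and 18.9% in the 3 groups and CpG-rich shares between 51.1% and 64.6%.

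The share kept in Cxxc1-deficient cells was also read by CpG class. Of CpG-rich members listed in WT 8 of 77 were kept (10.4%, 5.36 to 19.2) and of CpG-poor ones 7 of 38 (18.4%, 9.22 to 33.4). Both intervals include the 12.8% found in each CpG class of other genes.

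The uniqueness of the sequence around the TSSs also differed between the classes, and only uniquely mapped reads had entered the deposited windows. Around their TSSs 39 clustered genes (21.8%, 16.4 to 28.4) and 16 single genes (10.4%, 6.50 to 16.2) had under 90% of sampled 50-base stretches found once in mm9. Of these 55 members 4 were listed in WT, or 7.27%, beside 3.12% of other autosomal genes under 90%. Among the 278 members at or above 90%, clustered genes were listed at 47 of 140 (33.6%) and single genes at 64 of 138 (46.4%), a difference of -12.8 percentage points (-23.9 to -1.30), so the difference was present among these genes too. A TSS of another gene within 1 kb was as common in both classes, at 14 clustered and 13 single genes. Of the 13 single genes with one 12 were listed in WT, and of the 14 clustered genes 3, beside 57.9% of other autosomal genes with one. Without the members that had one the class difference was -10.4 percentage points, with an interval that included 0 (-20.8 to 0.118).

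By protein, 298 of the 333 members had at least 3 C2H2 fingers in their longest coding sequence, with a median of 12 fingers in clustered and 8 in single genes. A KRAB A box, found by a pattern of conserved residues that will miss divergent copies, was present in 99 clustered and 30 single genes. KRAB members were listed in WT at 30 of 129 (23.3%, 16.8 to 31.3) and the others at 85 of 204 (41.7%, 35.1 to 48.5), a difference of -18.4 percentage points (-27.8 to -8.07). In CpG-poor promoters the shares were 20 of 108 and 18 of 96, a difference of -0.231 percentage points (-11.1 to 10.4). In CpG-rich promoters they were 10 of 21 and 67 of 108, a difference of -14.4 percentage points with a wide interval (-35.5 to 7.70). By number of fingers, given as a description with no test of a trend, 25 of 46 members with 1 to 4 fingers were listed (54.3%, 40.2 to 67.8), 42 of 94 with 5 to 9 (44.7%, 35.0 to 54.7), 29 of 114 with 10 to 14 (25.4%, 18.3 to 34.1) and 15 of 64 with 15 or more (23.4%, 14.7 to 35.1). Other autosomal genes in the same bands were listed at 45.7%, 35.4%, 18.3% and 12.9%, so the fall was not particular to Zfp genes. No finger was found in 15 members, of which 4 were listed (26.7%, 10.9 to 52.0), among them Zfp36, whose zinc fingers are of the CCCH type and bind mRNA.

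A list of 10 members known from T cells and blood was chosen with earlier results of these data known. All 10 had WT H3K4me3, beside 32.5% of all autosomal genes, which given that choice supports no direction. All 10 are single and 8 of them are CpG-rich, and of all CpG-rich single members 53 of 82 were listed (64.6%). After Zfp335 and Zfp318, described with the highest levels, came Zfp281 and Zfp91 at 3.0 RPM, Zfp36, the mRNA decay factor tristetraprolin, at 2.9 RPM, and Zfp217 and Zfp609 at 2.8 RPM. Zfp292 stood at 2.2 RPM, and Zfp148 and Zfp608, which represses the Rag genes, at 1.6 RPM. Only Zfp608 was kept, at 1.1 RPM, or 1 of 10, beside 12.8% of listed autosomal genes.

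None of a chosen list of 7 KRAB repressors known for silencing was in any of the deposited lists. They were Zfp57 and Zfp445, which protect imprinted methylation, Zfp568, which represses a placental Igf2 transcript, and the retroelement repressors Zfp809, Zfp819, Zfp708 and Zfp932. With 0 of 7 the interval for WT reaches 35.4%, so the share was not distinguishable from the 32.5% of all autosomal genes. Only Zfp568 had a CpG-rich promoter. Zfp932 had no KRAB box by the pattern used here, nor had Zfp57 or Zfp708.

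Stem cell and developmental members were mixed, with 4 of 10 listed in WT. Zfp281, a factor of embryonic stem cells, stood at 3.0 RPM, the neural factor Zfp536 at 1.7 RPM, Zfp521 at 1.4 RPM and Zfp703 at 0.5 RPM. Zfp42 (Rex1), Zfp296, Zfp423, Zfp462, Zfp503 and Zfp57 were unlisted, although Zfp296, Zfp423, Zfp462 and Zfp503 had CpG-rich promoters. Zfp703 had 1.5 RPM in Cxxc1-deficient cells in a joined peak that did not overlap the WT one. These 3 lists were chosen with earlier results of these data known and support no direction.

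The 179 clustered genes formed 45 clusters, and listing was uneven among them. No member was listed in WT in 19 clusters, some but not all were in 26, and 0 clusters had every member listed. Of the 20 clusters of 2 genes, 10 had 1 listed gene, 10 had neither and 0 had both. By size, 10 of 40 genes were listed in clusters of 2 (25.0%), 9 of 40 in clusters of 3 or 4 (22.5%), 25 of 61 in clusters of 5 to 9 (41.0%, 29.5 to 53.5) and 5 of 38 in clusters of 10 or more (13.2%, 5.75 to 27.3).

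In the 3 clusters of 10 or more 5 of 38 genes were listed, and 4 had CpG-rich promoters. CpG-poor genes outside the family were listed at 16.1%. Members under 90% unique were seldom listed (4 of 55), as were other autosomal genes under 90% (3.12%). The median unique share was 99.65% in the 14-gene cluster of chromosome 7 and 95.1% in that of chromosome 13, which holds Zfp456 (76.0%). It was 93.7% in the 10-gene cluster, which holds Zfp114 (76.1%). What part CpG content or uniqueness had in the listing of these clusters was not tested. The 14-gene cluster at chr7:30553571-30954746, where 10 genes had a KRAB box, was listed at Zfp82 (1.9 RPM) and Zfp382 (2.1 RPM). The 14-gene cluster at chr13:67139530-67654065, with 11 KRAB genes and no CpG-rich promoter, was listed at Zfp712 (1.7 RPM). The 10-gene cluster at chr7:24866943-25101685 was listed at Zfp61 (2.4 RPM) and Zfp94 (1.9 RPM). None of these 5 was listed in Cxxc1-deficient cells. The same held for WT in the 8-gene cluster at chr17:32908181-33243148, with 0 genes listed.

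Other clusters were listed almost throughout, and these were chosen after their values were seen. On chromosome 6 a cluster of 7 had 6 listed genes at 1.4 to 2.4 RPM (Zfp786, Zfp398, Zfp282, Zfp212, Zfp956 and Zfp746), with only Zfp777 unlisted. On chromosome 7 a cluster of 7 had 5 listed (Zfp553, Zfp771, Zfp768, Zfp688 and Zfp689) at 1.4 to 2.7 RPM, and a cluster of 6 had 5 listed (Zfp628, Zfp579, Zfp524, Zfp865 and Zfp580) at 1.8 to 2.8 RPM. A further chromosome 7 cluster of 5 had 4 listed, Zfp329 at 1.5, Zfp110 at 2.4, Zfp128 at 2.3 and Zfp446 at 3.2 RPM. Together these 4 clusters had 20 of 25 genes listed and 15 CpG-rich promoters. The other 9 clusters of 5 or more had 10 of 74 listed and 10 CpG-rich promoters.

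**Figure D5:**
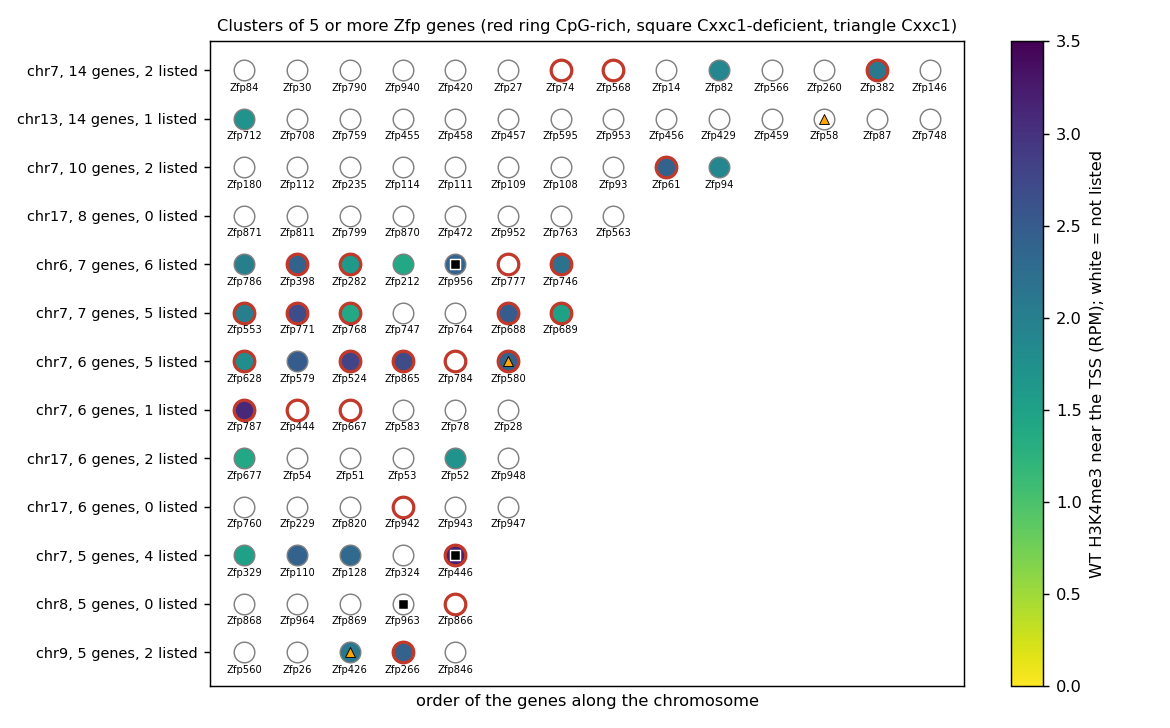
The 13 clusters of 5 or more Zfp genes, 1 row each, with genes in order along the chromosome and not to scale. Fill colour gives WT H3K4me3 in RPM (white for unlisted), a red ring a CpG-rich promoter, a square a Cxxc1-deficient H3K4me3 window and a triangle a Cxxc1 window; the 4 clusters with more than 2 filled circles hold 15 of the 25 red rings.

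Genes with other names beside the clusters had a share close to that of the clustered genes. Of 297 other genes within 100 kb of a clustered member 79 were listed in WT (26.6%, 21.9 to 31.9), with 44 of 75 listed among CpG-rich ones and 35 of 222 among CpG-poor ones. These 297 include 16 KRAB finger genes that are not named Zfp, of which 1 was listed. At the 100 kb limit, Zfp932 and Zfp605 lie 99.681 kb apart and counted as clustered, whereas Zfp825 and Zfp72 lie 103.951 kb apart and counted as single. All 4 were in no list. By chromosome, the 86 members of chromosome 7 were listed at 38.4% and the 39 of chromosome 17 at 17.9%, where other genes were listed at 26.7% and 35.3%.

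Short promoter motifs were searched on both strands from 250 bases before to 50 bases after the 5′ end of each gene, as a description of letters only. The ETS core CCGGAAG was present in 70 of 333 members (21.0%, 17.0 to 25.7), beside 10.9% of all autosomal promoters, and exceeded the other genes by 10.2 percentage points (6.18 to 14.9). It did so in CpG-rich promoters (27.9% against 16.9%) and in CpG-poor ones (16.7% against 6.63%). Clustered and single genes held it at 22.3% and 19.5%, a difference of 2.87 points (-6.00 to 11.5). It was found in 32 of the 115 WT-listed members (27.8%) and 38 of the 218 unlisted ones (17.4%), beside 16.6% of listed and 8.21% of unlisted genes over all autosomal genes. The run of Zfp655 shown first holds it once. The GC box GGGCGG was present in 39.0% of members and 43.8% of all promoters, and less often in clustered than in single genes (33.0% against 46.1%). The cyclic AMP element TGACGTCA was present in 11 members (3.30%) and 2.31% of all promoters, and is found once in the run of Zfp426. None of the 3 motifs contains another of them.

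The fingers of a Zfp gene are usually encoded in its long last exon, and the last exon was examined where it lay over 1 kb from any TSS. WT H3K4me3 windows overlapped it in 20 of 298 members (6.71%, 4.39 to 10.1) and 6.40% of other genes. Cxxc1-deficient windows overlapped it in 0 of 298 members, where the interval reaches 1.27%, and 0.903% of other genes. Cxxc1 windows did so in 4 members (1.34%, 0.523 to 3.40), beside 0.967% of all autosomal genes, and these were Zfp580, Zfp828, Zfp365 and Zfp41. Of these only Zfp41 also had a WT H3K4me3 window there.

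The partners of the KRAB domain and other zinc finger families gave a frame for these values. Of 14 genes of the corepressor list 11 were listed in WT, among them Trim28 at 4.9 RPM, about 1 tag above the highest Zfp gene, and 2 were kept, Trim28 at 2.2 and Uhrf1 at 1.4 RPM. Setdb1, Hdac1 and Daxx were unlisted. Of the Zbtb genes, zinc finger factors with a BTB domain, 26 of 36 were listed in WT (72.2%, 56.0 to 84.2) and 28 had CpG-rich promoters. Of the Zscan genes 1 of 16 was listed and of the Zkscan genes 2 of 9, and 2 and 3 of these had CpG-rich promoters. KRAB genes with at least 3 fingers and other names were listed at 4 of 49 (8.16%, 3.22 to 19.2), against 30 of 129 KRAB members with any number of fingers. Of the 49 only 1 had a CpG-rich promoter, against 21 of the 129. CpG-poor KRAB members were listed at 20 of 108 (18.5%, 12.3 to 26.9).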

How the data were processed

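ChIP-seq of DP thymocytes was analysed from 3 deposited lists, with 1 library per group (5 samples in the series). According to the study's methods and the submitters' processing notes, 50-bp reads were obtained with CASAVA 1.8.2, mapped to mm9 (the aligner is not given in the sources used here), and uniquely mapped reads were called into islands by SICER 1.1 against input and Cxxc1-deficient ChIP. The deposited values are RPM per 200-bp window, rounded by the authors to 1 decimal, and only windows inside called islands are listed. The Cxxc1 list was called against deficient cells, and its RPM are not set against those of H3K4me3.

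Gene models were GENCODE on NCBIM37 (mm9). Identifiers that share a symbol within 100 kb were joined (4 Zfp symbols, 337 identifiers to 333 genes). CpG content, 50-base uniqueness (sampled every 10 bp) and exons came from the same build. C2H2 fingers and the KRAB box were found by residue patterns in the translated longest coding sequence. Analyses used Python 3.11.15, numpy 2.4.6, pandas 2.3.3 and scipy 1.17.1, and the code was tested on simulated windows.

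Named genes were the 8 highest in WT, up to 10 kept, up to 8 with Cxxc1, up to 6 listed only in Cxxc1-deficient cells, listed members of the 3 largest clusters, the genes nearest to the 100 kb limit, and the role and corepressor lists. Members and lists were chosen with earlier results of these data known. The splits by CpG, KRAB, fingers and mapping (22 in all) and the 3 motifs were not in the fixed design and were added after the lists had been examined, each with 1 definition; the split of motifs by CpG class was added after the motif difference had been seen. Zfp655 was printed in place of the tied Zfp446 after its upstream bases were found to be exonic. Alternatives covered TSS distance, TSS choice, overlap, peak strength, cluster distance, shared promoters and mapping. Sequence in annotated exons was left out of printed runs.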

Additional observations from a re-analysis of the deposited data

How the results depend on the processing

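Of 113 values of the 12 shares, differences and medians under other settings, 104 stayed within the 95% interval of the reported value, and 0 changed the sign of a difference whose interval left out 0. Clustered minus single stayed below 0 in 13 of 13 settings, from -10.4 to -20.6 points, and its interval left out 0 in 12, the exception being the setting without shared promoters (-10.4, -20.8 to 0.118). With only the stronger 50% of joined peaks of each list, members listed in WT came to 20.7%, clustered ones to 12.3% and single ones to 30.5%, members listed in Cxxc1-deficient cells to 3.60%, members kept to 5.80% and single members kept to 4.26%, and the median WT level to 2.80 RPM; fewer windows enter by construction. With 500 bp in place of 1 kb that median was 1.90 RPM, since fewer windows are summed. Among genes with at least 90% unique 50-mers 39.9% of members were listed in WT. Separate identifiers, neighbours of any gene with at least 3 fingers, leaving out chromosome 7 and overlapping peaks were settings chosen after seeing the data. No paired analysis was possible because there was 1 library per group. Signal below the authors' threshold is not in the lists, and the difference between genotypes cannot be told apart from a difference between 2 libraries.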
